A study of Mus musculus with 2 samples.

Results

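The Toll-like receptor genes were described in RNA from the chromatin fraction of mouse bone marrow-derived macrophages that had been stimulated with lipid A. The members were the 10 genes Tlr1, Tlr2, Tlr3, Tlr4, Tlr5, Tlr6, Tlr7, Tlr8, Tlr9 and Tlr13, out of 55536 annotated genes. They were taken by name rather than by a measured value, but with earlier results of these data known. All 10 were found in the deposited tables. Macrophages of strain C57BL/6J, grown from bone marrow, had received 100 ng/ml lipid A for 75 min, and their chromatin-bound RNA was depleted of ribosomal RNA before sequencing. The series holds 2 libraries of this 1 group, labelled biological replicates, and no unstimulated cells or other times were analysed here, so no value given here is a response to lipid A. RNA input was 500 ng for replicate 2 and 250 ng for replicate 1. Both carry the same donor label, and sex and age were not collected. The sources used here do not say if 1 mouse or several gave the cells, so each SD (n = 2) and each test may measure the spread between cultures or preparations rather than between animals.

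Toll-like receptors are membrane proteins that recognise conserved parts of microbes through a leucine-rich repeat domain and signal through an intracellular TIR domain. TLR1, TLR2, TLR4, TLR5 and TLR6 act at the cell surface on lipids and proteins of microbes, whereas TLR3, TLR7, TLR8, TLR9 and TLR13 sense nucleic acids in endosomes. Lipid A, the membrane anchor of bacterial lipopolysaccharide, is the ligand of TLR4 with its partner MD-2. Signals pass through the adaptors MyD88 and TRIF to NF-kB, AP-1 and IRF transcription factors. RNA bound to chromatin is enriched for transcripts that are still being made or processed, so a level in this fraction is not the level of the mature mRNA or the protein.

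The libraries differed in depth and make-up. Estimated counts on annotated genes summed to 29638814 in replicate 2 and 21453617 in replicate 1. Genes of a ribosomal DNA locus on chromosome 17 took 12.7% of these counts in replicate 2 and 41.6% in replicate 1. Protein-coding genes held 25% of all TPM (a level per unit of transcript length, scaled to the table's total) in replicate 2 and 14% in replicate 1, and every TPM is relative to that total. Levels are therefore given per library, and the libraries are compared on counts scaled by TMM, a trimmed mean of gene ratios. The authors deposited 2 quantifications of each library, the first from an alignment to the transcriptome and the second from a transcript index, and values are from the first unless the second is named. Of 10 macrophage markers, 9 reached 1 TPM in both libraries, with summed levels of 494 TPM in replicate 2 and 310 TPM in replicate 1. The defining B cell, neutrophil, and T and NK cell markers summed to at most 0.16, 0.59 and 0.03 TPM in either library, with 2 of 6, 3 of 7 and 4 of 6 of them at 0 in both.

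The most abundant Toll-like receptor transcripts on chromatin were those of Tlr2, Tlr1 and Tlr7. Together with Tlr4, Tlr8 and Tlr13 they made up the 6 of 10 members that reached 1 TPM in both libraries, against 34.7% of the 22028 protein-coding genes. The remaining 4 were Tlr3 and Tlr6, which passed 1 TPM in replicate 2 but not in replicate 1, and Tlr5 and Tlr9, which were below it in both. The median of the members' mean levels was 4.68 TPM, beside 0.19 TPM for all protein-coding genes and 8.18 TPM for the 7633 protein-coding genes that passed 1 TPM in both. Summed over the 10 genes, the level was 224 TPM in replicate 2 and 70.6 TPM in replicate 1. Tlr2 alone held 56.4% of this sum in replicate 2 and 50.3% in replicate 1.

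**Figure D1:**
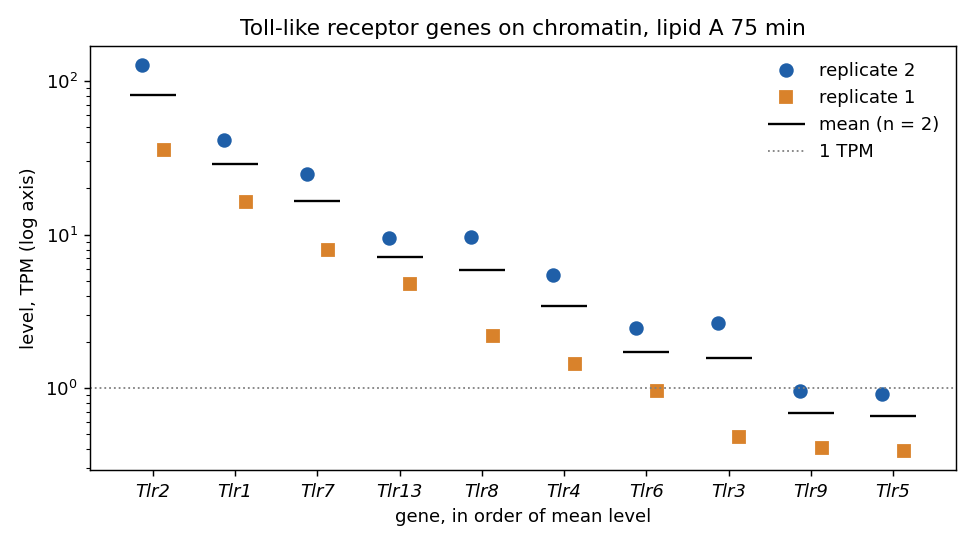
Level of each Toll-like receptor gene in TPM on a log axis, with replicate 2 as circles on the left, replicate 1 as squares on the right, and a line at their mean. Tlr2 stands highest in both libraries, Tlr9 and Tlr5 stand lowest, and every gene has a higher TPM in replicate 2 than in replicate 1.

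Tlr2 encodes the shared partner of the receptors for bacterial lipopeptides, since TLR2 pairs with TLR1 for triacylated and with TLR6 for diacylated ligands. The gene (ENSMUSG00000027995.10, mm10, chr3:83836272-83841767, minus strand) has 1 annotated transcript, whose whole coding sequence lies in 1 exon. Its level was 127 TPM in replicate 2 and 35.5 TPM in replicate 1, a mean of 81.0 ± 64.3 TPM (SD, n = 2). That placed it at the 98.3rd percentile of protein-coding genes in replicate 2 and the 96.3rd in replicate 1. It rested on 11199 counts in replicate 2 and 2922 in replicate 1, the deepest coverage of any member. In CPM, counts scaled to the library total, this was 378 in replicate 2 (95% exact Clopper-Pearson interval 371 to 385) and 136 in replicate 1 (131 to 141). Such intervals cover counting error only, since no molecular identifiers were described.

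The Tlr2 start region is shown because it belongs to the most abundant member and holds strings of the NF-kB consensus. The window runs from 250 bases before to 50 bases after the start site in RefSeq (GRCm38.p6, chr3:83841559-83841858, minus strand, printed 5′ to 3′ along the gene), and capitals mark the matches.
Tlr2 promoter: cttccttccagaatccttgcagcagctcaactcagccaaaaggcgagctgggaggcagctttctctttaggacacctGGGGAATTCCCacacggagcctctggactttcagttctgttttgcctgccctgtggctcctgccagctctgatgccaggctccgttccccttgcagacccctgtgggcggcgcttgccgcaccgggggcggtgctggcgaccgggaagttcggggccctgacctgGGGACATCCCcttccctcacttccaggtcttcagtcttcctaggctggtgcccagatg
The matches begin at positions -173, -172 and -8 relative to the RefSeq start, on either strand, and the first 2 overlap. A match to the NF-kB consensus occurs in 8.46% of all 32851 RefSeq windows of 300 bases. The IRF string AANNGAAA, searched on both strands, also occurs in this window, at positions -191 and -145, and in 23.9% of all windows. In GENCODE the only transcript, Tlr2-201, starts at chr3:83841767, within the window and upstream of the RefSeq start. The match at -8 and the IRF string at -145 lie downstream of that GENCODE start, and the other matches lie upstream of it. A match describes the letters of the window and not a site that is bound.

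Tlr1 and Tlr6 encode the co-receptors of TLR2. Tlr1 (ENSMUSG00000044827.10, chr5:64924679-64933563, minus strand) had 41.3 TPM in replicate 2 and 16.4 TPM in replicate 1, a mean of 28.8 ± 17.6 TPM (SD, n = 2), from 2395 counts in replicate 2 and 961 in replicate 1. Tlr6 (ENSMUSG00000051498.6, chr5:64952031-64960097, minus strand) had 2.45 TPM in replicate 2 and 0.96 TPM in replicate 1, a mean of 1.71 ± 1.05 TPM (SD, n = 2), from 245 counts in replicate 2 and 74 in replicate 1. The genes are neighbours on the same strand, 18467 bases apart with no annotated gene between them, yet Tlr1 was far above Tlr6 in each library. The TPM ratio of Tlr1 to Tlr6 was 16.8 in replicate 2 and 17.1 in replicate 1. By counts it was 9.77 in replicate 2 and 13.0 in replicate 1, so the near match is one of TPM only. The TPM ratio of Tlr2 to Tlr1 moved more, at 3.07 in replicate 2 and 2.17 in replicate 1. In the second quantification it was 1.95 in replicate 2 and 1.17 in replicate 1. There, the non-coding Tlr1-203 of 419 bases held 56.1% of the Tlr1 TPM in replicate 2 and 59.4% in replicate 1. On transcripts with a complete coding sequence, Tlr1 had 26.4 TPM in replicate 2 and 11.6 TPM in replicate 1 there. Tlr2 had 117 and 33.4 TPM in the same order. In the first quantification the ratio of Tlr2 to Tlr6 was 51.6 in replicate 2 and 37.0 in replicate 1. Within both libraries the order was thus Tlr2, then Tlr1, then Tlr6.

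Tlr1 and Tlr6 are the only members whose annotated transcripts share stretches of 50 bases. They have 454 such stretches in common, 13.6% of those in Tlr1 and 12.3% of those in Tlr6. The longest identical run, printed because reads inside it cannot be assigned to either gene by sequence, is 229 bases long. It lies in the coding sequence of exon 3 of the Tlr1-201 transcript (GRCm38, chr5:64925537-64925765, minus strand) and of exon 2 of Tlr6-201 (chr5:64953828-64954056, minus strand). In Tlr1 it begins after 1467 of the 2385 coding bases, and in Tlr6 after 1506 of 2418.
Tlr1 and Tlr6 shared coding stretch: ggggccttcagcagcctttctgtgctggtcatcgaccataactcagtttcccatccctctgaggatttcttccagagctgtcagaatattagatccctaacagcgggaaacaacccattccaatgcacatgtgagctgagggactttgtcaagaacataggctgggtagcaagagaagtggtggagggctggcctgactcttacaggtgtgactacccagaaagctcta
The deposited posterior SD of the count was 2.01 in replicate 2 and 1.15 in replicate 1 for each of the pair, small beside their counts. It was 0 in both libraries for every other member except Tlr3. The low Tlr6 level is nevertheless uncertain to the extent that reads from the shared stretches were split by the authors' model.

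Tlr1 has start sites in 2 RefSeq windows, and the counts divided between them differently in the libraries. Tlr1-201 starts at the downstream site, whereas Tlr1-202 and the short non-coding Tlr1-203 start at the upstream site. Tlr1-201 had 1834 counts in replicate 2 and 443 in replicate 1, which is 76.6% of the gene's counts in replicate 2 and 46.1% in replicate 1. Tlr1-202 had 482 counts in replicate 2 and 494 in replicate 1, or 20.1% in replicate 2 and 51.4% in replicate 1. The coding sequence of both transcripts is the same 2385 bases, so the split rests on their upstream exons. In the second quantification, Tlr1-201 had 72.8% of the counts in replicate 2 and 65.4% in replicate 1. The libraries thus lay closer together there, and the downstream start led in both. The windows are shown because the transcripts differ at these starts, with the PU.1 string GAGGAA (both strands searched) in capitals.
Tlr1 upstream start, chr5:64933509-64933808, minus strand: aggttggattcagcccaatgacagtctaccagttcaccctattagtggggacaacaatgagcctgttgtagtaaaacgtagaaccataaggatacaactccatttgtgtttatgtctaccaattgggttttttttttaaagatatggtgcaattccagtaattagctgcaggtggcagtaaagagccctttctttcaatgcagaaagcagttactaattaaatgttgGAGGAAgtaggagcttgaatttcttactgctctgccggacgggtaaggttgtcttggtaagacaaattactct
Tlr1 downstream start, chr5:64932650-64932949, minus strand: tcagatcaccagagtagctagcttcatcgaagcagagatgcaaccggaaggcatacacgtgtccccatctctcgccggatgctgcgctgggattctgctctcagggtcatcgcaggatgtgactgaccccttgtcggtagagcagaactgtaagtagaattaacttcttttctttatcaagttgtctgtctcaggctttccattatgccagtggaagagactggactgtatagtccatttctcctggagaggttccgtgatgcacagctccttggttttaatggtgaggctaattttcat
The PU.1 string stands at position -23 of the upstream window and is not among the letters of the downstream window. The downstream window holds an IRF string at position -54 relative to the RefSeq start. This string lies downstream of the GENCODE start of Tlr1-201 at chr5:64932761. PU.1 is a myeloid transcription factor encoded by Spi1, and its string occurs in 28.3% of all windows.

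Tlr4 encodes the receptor through which lipid A acts. The gene (ENSMUSG00000039005.13, chr4:66827584-66930284, plus strand) had 5.42 TPM in replicate 2 and 1.43 TPM in replicate 1, a mean of 3.42 ± 2.82 TPM (SD, n = 2), from 663 counts in replicate 2 and 163 in replicate 1. It stood at the 75.8th percentile of protein-coding genes in replicate 2 and the 68.4th in replicate 1. The receptor for the added ligand was thus in the middle of the family, below Tlr2 in each library. The TPM ratio of Tlr2 to Tlr4 was 23.3 in replicate 2 and 24.9 in replicate 1. In the second quantification this ratio was 5.34 in replicate 2 and 8.53 in replicate 1.

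The quantifications differed in which Tlr4 transcripts received the counts. The first quantification put every Tlr4 count on Tlr4-201, the transcript with the coding sequence of 2505 bases. The second gave Tlr4-201 1050 counts in replicate 2 and 275 in replicate 1. It gave Tlr4-202 842 counts in replicate 2 and 141 in replicate 1, where the first listed 0. Tlr4-202 has a coding sequence of only 462 bases and ends at chr4:66930284, far downstream of the end of Tlr4-201 at 66842800. The TPM of Tlr4-201 alone was 6.12 in replicate 2 and 1.60 in replicate 1 in the second quantification, close to the gene's levels in the first.

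Tlr5 encodes the receptor for bacterial flagellin and was the lowest member by mean level. It (ENSMUSG00000079164.8, chr1:182954788-182976044, plus strand) had 0.92 TPM in replicate 2 and 0.39 TPM in replicate 1, a mean of 0.655 ± 0.375 TPM (SD, n = 2). Its counts were 81 in replicate 2 and 34 in replicate 1, so its count of 2.73 CPM in replicate 2 had an interval of 2.17 to 3.40, and 1.58 CPM in replicate 1 had an interval of 1.10 to 2.21. Both are far above the floor that 3 counts set, 0.101 CPM in replicate 2 and 0.14 CPM in replicate 1. Low Tlr5 was therefore measured above the counting floor, although not precisely.

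Tlr7 and Tlr8 encode endosomal receptors of single-stranded RNA and its breakdown products, and are neighbours on the X chromosome. Tlr7 (ENSMUSG00000044583.13, chrX:167304929-167330558, minus strand) had 25.0 TPM in replicate 2 and 7.97 TPM in replicate 1, a mean of 16.5 ± 12.0 TPM (SD, n = 2), from 2682 counts in replicate 2 and 769 in replicate 1. Tlr8 (ENSMUSG00000040522.5, chrX:167242696-167264329, minus strand) had 9.65 TPM in replicate 2 and 2.20 TPM in replicate 1, a mean of 5.93 ± 5.27 TPM (SD, n = 2), from 756 counts in replicate 2 and 185 in replicate 1. The genes lie 40599 bases apart on the same strand with no annotated gene between them. Tlr7 was above Tlr8 in each library, with a TPM ratio of 2.59 in replicate 2 and 3.62 in replicate 1, and of 4.78 in replicate 2 and 6.02 in replicate 1 in the second quantification.

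Tlr13 encodes a receptor for a conserved sequence of bacterial ribosomal RNA, and humans have no functional copy. It (ENSMUSG00000033777.4, chrX:106143204-106160493, plus strand) had 9.49 TPM in replicate 2 and 4.80 TPM in replicate 1, a mean of 7.14 ± 3.32 TPM (SD, n = 2), from 865 counts in replicate 2 and 440 in replicate 1. Against Tlr8 it was level in replicate 2, at a ratio of 0.983, and higher in replicate 1, at a ratio of 2.18. The second quantification gave 0.528 in replicate 2 and 1.06 in replicate 1. Tlr13 and Tlr8 therefore had no fixed order across the libraries.

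Tlr3 encodes the receptor for double-stranded RNA, which signals through TRIF alone. It (ENSMUSG00000031639.12, chr8:45395665-45411080, minus strand) had 2.67 TPM in replicate 2 and 0.48 TPM in replicate 1, a mean of 1.57 ± 1.55 TPM (SD, n = 2), from 153 counts in replicate 2 and 31 in replicate 1. Its level was higher in replicate 2 by the largest TPM factor of any member. Transcripts with a partial coding sequence held 66.2% of the Tlr3 TPM in replicate 2 and 46.9% in replicate 1. By counts they held 23.9% and 3.23% in the same order. On transcripts with a complete coding sequence, Tlr3 had 0.91 TPM in replicate 2 and 0.26 TPM in replicate 1. Both are below 1 TPM, and on such transcripts Tlr2, Tlr4 and Tlr8 had larger factors than Tlr3. Its coding sequence is spread over 4 exons, the largest with 68.3% of it. In Tlr1, Tlr2 and Tlr6 a single exon holds the whole coding sequence, and in Tlr5-201 and the complete coding transcripts of Tlr7, Tlr8, Tlr9 and Tlr13 the largest holds at least 98.5%. The coding sequence of Tlr4 is also split, over 3 exons in Tlr4-201 (largest 89.7%) and 4 in Tlr4-202 (largest 36.1%). An annotated antisense gene, Gm45542 (chr8:45410063-45410760, plus strand), overlaps Tlr3 over 698 bases. The sources used here do not state a strand setting for the counting, so reads there could belong to either gene. Gm45542 had 5 counts in replicate 2 and 1 in replicate 1.

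The Tlr3 start region is shown because Tlr3 was the only member past 2-fold between the libraries and its window holds strings of both NF-kB and IRF type. Such a difference was called for 12.1% of all genes tested, and Tlr8 and Tlr4 lay close behind at 1.94-fold and 1.93-fold. A link between these strings and the difference was not tested. Capitals mark the IRF string.
Tlr3 promoter, GRCm38.p6, chr8:45410331-45410630, minus strand: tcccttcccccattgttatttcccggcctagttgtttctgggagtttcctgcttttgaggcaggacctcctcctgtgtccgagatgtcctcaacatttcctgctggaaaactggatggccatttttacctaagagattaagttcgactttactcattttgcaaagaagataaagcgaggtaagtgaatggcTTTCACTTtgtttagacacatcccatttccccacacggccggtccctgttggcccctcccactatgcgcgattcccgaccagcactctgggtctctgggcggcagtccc
Relative to the RefSeq start, the IRF string, read here on the opposite strand, is at position -59. A match to the NF-kB consensus is at -211. GENCODE starts of Tlr3 differ within this window. Both strings lie upstream of the start of Tlr3-205 at chr8:45410380, but downstream of the start of Tlr3-201 and Tlr3-202 at 45410619. Of the Tlr3 counts, Tlr3-201 held 44.3% in replicate 2 and 54.1% in replicate 1, and Tlr3-205 held 4.78% and 42.7% in the same order. Among the 8 members with a RefSeq window, the NF-kB consensus was found in 2 (Tlr2 and Tlr3), the IRF string in 4 (Tlr1, Tlr2, Tlr3 and Tlr6) and the PU.1 string in 4 (Tlr1, Tlr8, Tlr9 and Tlr13). The shares of all windows were 8.46%, 23.9% and 28.3% in the same order, but these are per window, whereas Tlr1 and Tlr6 each have 2 windows. The IRF strings of Tlr6 lie in a window with no GENCODE start. The AP-1 string TGANTCA was found in Tlr9 and the TATA string TATAAA in Tlr6 and Tlr8, against 7.81% and 13.6% of all windows. Tlr4 and Tlr7 were not searched.

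Tlr9 encodes the receptor for unmethylated CpG DNA. It (ENSMUSG00000045322.10, chr9:106222598-106226883, plus strand) had 0.96 TPM in replicate 2 and 0.41 TPM in replicate 1, a mean of 0.685 ± 0.389 TPM (SD, n = 2), from 99 counts in replicate 2 and 39 in replicate 1. Tlr7, which uses the same trafficking protein UNC93B1, was 26.0 times Tlr9 in replicate 2 and 19.4 times in replicate 1. In the second quantification the ratio was 123 in replicate 2 and 94.5 in replicate 1. There, only 20.4% of the Tlr7 TPM in replicate 2 and 20.7% in replicate 1 lay on transcripts with a complete coding sequence. On those transcripts Tlr7 had 21.3 TPM in replicate 2 and 6.36 TPM in replicate 1, beside 0.849 and 0.324 TPM for Tlr9. Tlr9 and Tlr5 were level in both libraries, with TPM ratios of 1.04 in replicate 2 and 1.05 in replicate 1.

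Of the other mouse Toll-like receptor genes, Tlr11 and Tlr12, which sense the protozoan protein profilin, both had 0 counts in both libraries. At the floor of 3 counts this allows up to 0.0329 TPM of Tlr11 in replicate 2 and 0.0354 TPM in replicate 1, and up to 0.0602 TPM of Tlr12 in replicate 2 and 0.065 TPM in replicate 1. The second quantification gave Tlr11 1 count, in replicate 2. Their levels were thus below the lowest member, Tlr5, by more than the counting error.

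Grouped by where the receptors act, the 5 cell-surface genes summed to 177 TPM in replicate 2 and 54.7 TPM in replicate 1. The 5 endosomal genes summed to 47.8 TPM in replicate 2 and 15.9 TPM in replicate 1. Cell-surface genes therefore held 78.7% of the members' TPM in replicate 2 and 77.5% in replicate 1, mostly through Tlr2. By median the order was the other way, with 5.42 TPM for cell-surface genes and 9.49 TPM for endosomal genes in replicate 2, and 1.43 and 2.20 TPM in replicate 1. In the second quantification the endosomal share was larger, 41.4% in replicate 2 and 38.4% in replicate 1, with Tlr7 the largest of the 5 endosomal genes. Only 20.4% of that Tlr7 TPM in replicate 2 and 20.7% in replicate 1 lay on transcripts with a complete coding sequence.

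The order of the levels was largely shared by the libraries. By mean it ran Tlr2, Tlr1, Tlr7, Tlr13, Tlr8, Tlr4, Tlr6, Tlr3, Tlr9, Tlr5. Of the 45 pairs of members, 43 had the same order in both libraries. The exceptions were Tlr13 with Tlr8 and Tlr6 with Tlr3. The ranges over the libraries did not overlap in 29 pairs. Of the 9 neighbouring pairs, 7 kept their order within each library. The gap in the means exceeded the SD of both genes for 0 of the 9, but those SDs include the higher TPM of every member in replicate 2. The second quantification turned the order of 4 pairs in the mean. These were Tlr1 with Tlr7, Tlr13 with Tlr8, Tlr13 with Tlr4, and Tlr6 with Tlr3. Tlr7 stood above Tlr1 there in both libraries, with a Tlr1 to Tlr7 ratio of 0.574 in replicate 2 and 0.931 in replicate 1. On transcripts with a complete coding sequence, however, Tlr1 stood above Tlr7 there in both libraries. Tlr1 then had 26.4 TPM in replicate 2 and 11.6 TPM in replicate 1, beside 21.3 and 6.36 TPM for Tlr7.

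**Figure D2:**
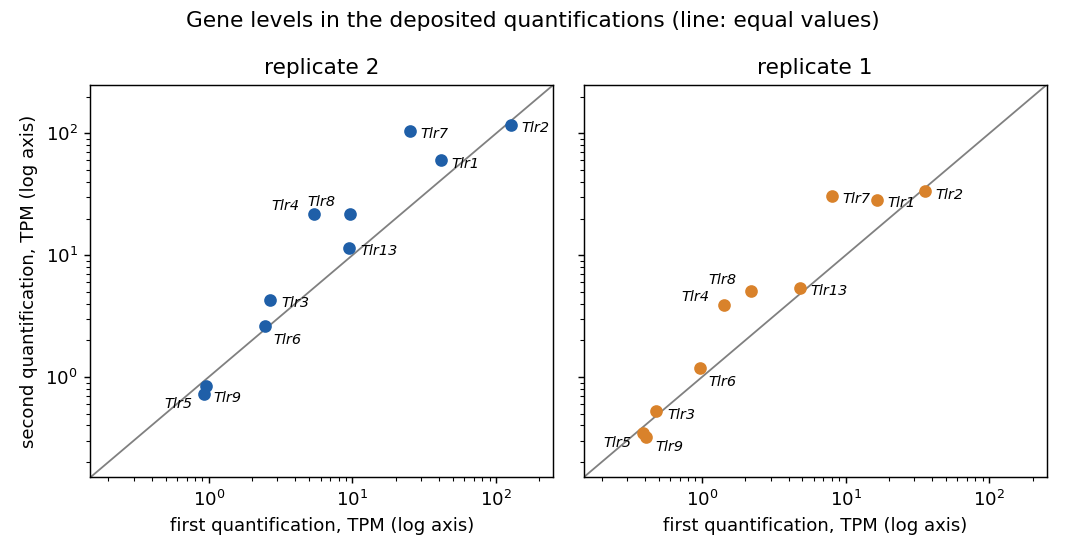
Gene levels in the second quantification (vertical, TPM) against the first (horizontal, TPM), both on log axes, for replicate 2 on the left and replicate 1 on the right, with a line of equal values. Tlr7, Tlr4 and Tlr8 lie furthest above the line in both libraries. Tlr1 lies above it by less, as does Tlr3 in replicate 2. Tlr2, Tlr5, Tlr6, Tlr9 and Tlr13 lie near it, as does Tlr3 in replicate 1.

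Tlr7 showed the largest gap between the quantifications. Its second level was 105 TPM in replicate 2 and 30.7 TPM in replicate 1, which is 4.19 times the first in replicate 2 and 3.85 times in replicate 1. The ratio was 4.04 in replicate 2 and 2.74 in replicate 1 for Tlr4, and 2.27 in replicate 2 and 2.32 in replicate 1 for Tlr8. For Tlr2 the second level of 117 TPM in replicate 2 and 33.4 TPM in replicate 1 was close to the first. For Tlr1 the ratio was 1.46 in replicate 2 and 1.74 in replicate 1, and for Tlr3 it was 1.61 in replicate 2 and 1.09 in replicate 1. For Tlr7, Tlr4, Tlr8 and Tlr1, the second quantification placed more counts on short or alternative transcripts. Tlr1-203 made 56.1% of the second Tlr1 TPM in replicate 2 and 59.4% in replicate 1. Tlr7-206, a non-coding transcript of 261 bases, received 214 counts in replicate 2 and 54.5 in replicate 1 there, against 0 in replicate 2 and 1 in replicate 1 in the first. These few counts made 48.4% of the gene's second TPM in replicate 2 and 42.3% in replicate 1, since TPM divides by length. Tlr8-204, of 387 bases, likewise made 68.4% of the second Tlr8 TPM in replicate 2 and 62.2% in replicate 1.

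Restricted to transcripts with a complete coding sequence, Tlr7 and Tlr8 came out alike in both quantifications. Tlr7 then had 23.7 TPM in replicate 2 and 7.33 TPM in replicate 1 in the first quantification, and 21.3 TPM in replicate 2 and 6.36 TPM in replicate 1 in the second. Tlr8 had 7.68 TPM in replicate 2 and 2.03 TPM in replicate 1 in the first, and 6.32 TPM in replicate 2 and 1.78 TPM in replicate 1 in the second. Tlr4 still differed, with 17.6 TPM in replicate 2 and 3.52 TPM in replicate 1 in the second, which includes Tlr4-202 as a transcript annotated complete.

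Over all 10 genes the annotation lists 38 transcripts, of which 18 have a complete coding sequence and 18 are shorter than 1000 bases. Transcripts not annotated as protein-coding held 7.89% of the members' TPM in replicate 2 and 8.70% in replicate 1, a mean of 8.29% ± 0.567 (SD, n = 2). By counts the same transcripts held 0.515% on average. The share was 32.3% ± 0.499 (SD, n = 2) of TPM in the second quantification. Most of it in the first came from Tlr1-203, a transcript of 419 bases with 32.1% of the Tlr1 TPM in replicate 2 and 27.7% in replicate 1, but 3.30% of its counts in replicate 2 and 2.52% in replicate 1. Tlr13-202, the only member transcript annotated as a retained intron, had 9 counts in replicate 2 and 3 in replicate 1. It made 25.9% of the Tlr13 TPM in replicate 2 and 19.6% in replicate 1. Members with 1 transcript, Tlr2 and Tlr9, are free of this choice.

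**Figure D3:**
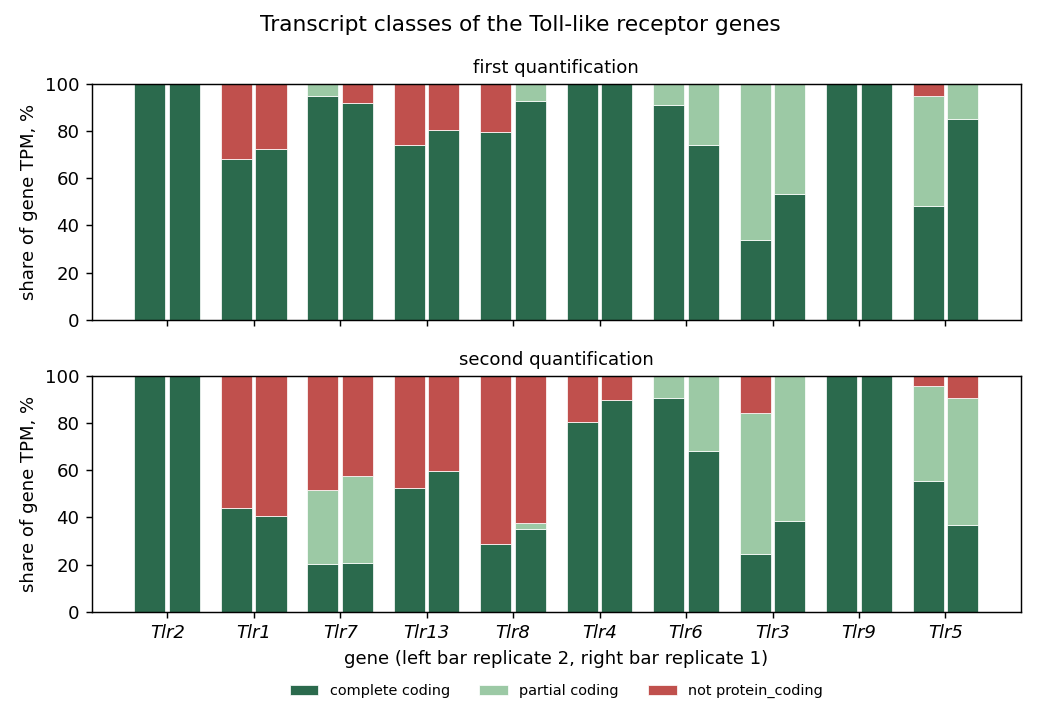
Share of each gene's TPM (percent) on transcripts with a complete coding sequence, a partial coding sequence, or not annotated protein_coding, for the first quantification above and the second below; the left bar of each gene is replicate 2 and the right bar replicate 1. Tlr2 and Tlr9 are wholly complete coding in both panels, while for Tlr7 and Tlr8 complete coding transcripts fill most of the bar above and at most 35.0% of it below.

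The libraries were next compared with each other on TMM-scaled counts, gene by gene over all 14442 genes with at least 20 summed counts, with a two-sided exact binomial test and Benjamini-Hochberg adjustment. This test compares these libraries and not conditions, and it carries counting error only. At an adjusted p under 0.05, 7 of the 10 members were higher in replicate 2, 0 were lower and 3 did not pass, against 25.4% of all genes tested that were higher and 51.3% that passed in either direction. Requiring a 2-fold difference as well, Tlr3 alone was called, against 12.1% of all genes tested in either direction. The members' median log2 ratio was 0.66, beside -0.08 for protein-coding genes tested (quartiles -0.41 and 0.29) and 0.01 for all genes tested. Of the 10, 9 lay above the protein-coding median.

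Tlr3 was 2.34 times as high in replicate 2 as in replicate 1 (95% counting interval of the log2 ratio 0.66 to 1.83, adjusted p = 1.33e-05, exact binomial test). Tlr8 and Tlr4 followed at 1.94-fold (adjusted p = 7.56e-17, exact binomial test) and 1.93-fold (adjusted p = 1.22e-14, exact binomial test). The intervals of these 3 genes overlap, so their order is not settled. Tlr2 was 1.82-fold higher (log2 interval 0.80 to 0.92, adjusted p = 6.15e-201, exact binomial test). Tlr7 and Tlr6 were 1.65-fold and 1.57-fold higher (adjusted p = 1.23e-36 and 0.00133, exact binomial test). Tlr1 was 1.18-fold higher (log2 interval 0.13 to 0.35, adjusted p = 3.35e-05, exact binomial test). The intervals of Tlr1 and Tlr2 do not overlap, so these partners did not move by the same factor. In the second quantification the log2 ratio was -0.06 for Tlr1 and 0.27 for Tlr6 (adjusted p = 0.255 and 0.0876, exact binomial test), so neither call held there.

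The other 3 members did not pass. Tlr13 had a ratio of 0.933 (log2 interval -0.27 to 0.07, adjusted p = 0.333, exact binomial test). Tlr9 had a ratio of 1.20 (log2 interval -0.28 to 0.84, adjusted p = 0.473, exact binomial test) and Tlr5 a ratio of 1.13 (log2 interval -0.42 to 0.80, adjusted p = 0.715, exact binomial test). The intervals of Tlr9 and Tlr5 hold both a ratio of 1 and the log2 ratio of Tlr7, 0.72. The interval of Tlr13 is narrower and lies below that of Tlr2. In the second quantification Tlr13 passed as lower in replicate 2, at a log2 ratio of -0.28 (adjusted p = 0.000435, exact binomial test). Scaled by library size alone, all 10 members were higher in replicate 2, but so were 59.7% of all genes tested. RNA input and the ribosomal DNA share differed between the same libraries, and their part in these ratios was not tested.

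**Figure D4:**
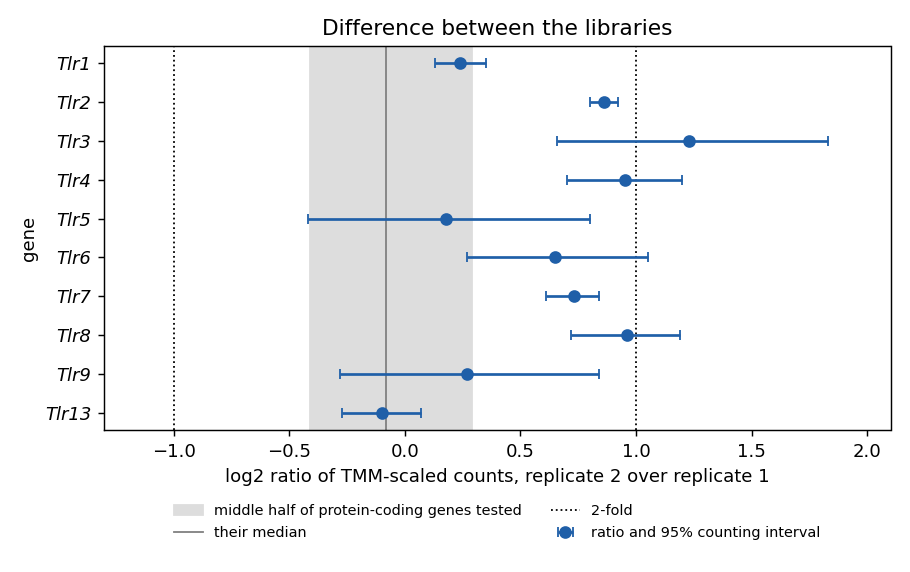
Log2 ratio of TMM-scaled counts, replicate 2 over replicate 1, computed without a pseudocount, with its 95% counting interval; the grey band and line are the quartiles and median of protein-coding genes tested, computed with a pseudocount of 0.5 CPM, and dotted lines mark 2-fold. Tlr3 lies past 2-fold with a wide interval, while the intervals of Tlr1, Tlr5, Tlr6, Tlr9 and Tlr13 reach into the band.

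Most genes that work with the receptors were detected on chromatin. Of 52 listed pathway genes, 47 reached 1 TPM in both libraries. Of the 48 that were tested, 2 were called higher in replicate 2 and 0 lower, against 7.05% and 5.01% of all genes tested. These were Ly86, which encodes the MD-1 partner of the TLR-like protein CD180, at 2.40-fold (adjusted p = 7.28e-13, exact binomial test), and Irf7, a transcription factor of the interferon response, at 2.27-fold (adjusted p = 2.18e-107, exact binomial test). Of 6 co-receptor and accessory genes, 5 reached 1 TPM in both. Cd14, whose protein hands lipopolysaccharide to TLR4, had 117 TPM in replicate 2 and 68.0 TPM in replicate 1, many times the level of Tlr4 itself. Cd180 had 105 TPM in replicate 2 and 31.8 TPM in replicate 1. Lbp, the serum carrier of lipopolysaccharide made mainly in liver, had 1 count, in replicate 2.

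Of 6 folding and trafficking genes, 5 reached 1 TPM in both, and the exception was Cnpy4, with 4 counts in replicate 2 and 5 in replicate 1. Unc93b1, which escorts the endosomal receptors from the endoplasmic reticulum, had 74.9 TPM in replicate 2 and 34.1 TPM in replicate 1, above each of the 5 endosomal receptor genes in each library. The receptor chaperone gene Hsp90b1 had 27.5 TPM in replicate 2 and 20.6 TPM in replicate 1. Of the 9 genes for endolysosomal proteases and nucleases, 9 reached 1 TPM in both, led by Ctsb, the cathepsin B gene, at 316 TPM in replicate 2 and 168 TPM in replicate 1. Of 6 TIR adaptor genes, 5 reached 1 TPM in both. The exception was Sarm1, an adaptor known mainly from neurons, with 0 counts in replicate 2 and 1 in replicate 1.

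Downstream of the adaptors, 9 of 10 kinase and ligase genes and 8 of 8 transcription factor genes reached 1 TPM in both. The exception was Tab1, a TAK1-binding adaptor, with 1.09 TPM in replicate 2 and 0.80 TPM in replicate 1. Irak2, which encodes a kinase of the MyD88 complex, had 131 TPM in replicate 2 and 104 TPM in replicate 1. Nfkb1, which encodes the p105 precursor of NF-kB p50, had 619 TPM in replicate 2 and 331 TPM in replicate 1, several times any receptor gene. Among 7 negative regulators, 6 passed, led by Tnfaip3, the gene of the ubiquitin-editing enzyme A20, at 897 TPM in replicate 2 and 396 TPM in replicate 1. Sigirr, an inhibitory member of the IL-1 receptor family, was lowest, with 2 counts in replicate 2 and 0 in replicate 1. Spi1, which encodes PU.1, had 19.4 TPM in replicate 2 and 18.1 TPM in replicate 1.

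Some Toll-like receptor genes are also expressed by other immune cells, so markers of these were set beside them. Tlr7 and Tlr9 are used by plasmacytoid dendritic cells, of whose 6 listed markers 2 reached 1 TPM in both. These were Tcf4, with 156 TPM in replicate 2 and 60.1 TPM in replicate 1, and Bst2, with 8.03 TPM in replicate 2 and 3.14 TPM in replicate 1, both of which macrophages can also express. The list summed to 165 TPM in replicate 2 and 63.8 TPM in replicate 1, with 1 of the 6, Ly6d, at 0 in both. Conventional dendritic cell markers summed to 2.95 TPM in replicate 2 and 1.62 TPM in replicate 1, with 0 of 6 at 1 TPM in both. Stromal and endothelial markers summed to 1.66 TPM in replicate 2 and 1.32 TPM in replicate 1, with 0 of 5 at that level. Of the 10 macrophage markers, all tested, 2 were called lower in replicate 2 and 0 higher, against 5.01% and 7.05% of all genes tested, and their median log2 ratio was -0.25. The called genes were Csf1r at 0.449-fold and Itgam at 0.424-fold, whereas Adgre1 was at 1.07-fold, Fcgr1 at 1.04-fold and Cd14 at 0.941-fold. In bulk RNA, fewer cells of a type and less RNA per cell cannot be told apart.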

How the data were processed

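The authors deposited, per the text that goes with each library, estimated (expected) counts, TPM and FPKM per gene and transcript from a transcriptome alignment (mm10, GENCODE M21), called the first quantification. They also deposited estimated counts and TPM per transcript from a transcript index, called the second. The sources used here name no aligner, quantifier, version or strand setting. Per the file headers, the tables also hold the share of a gene's TPM on each transcript as a percent (unused, recomputed here) and a posterior SD of each count, treated as a score from the authors' quantifier. The members and gene lists were chosen with earlier results of these data known. From each list, text names come from its 2 highest and its lowest gene by mean TPM and any gene called between the libraries. Spi1 was added for its promoter string.

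Rows naming no annotated gene (26345, with 0.277% of counts in replicate 2 and 0.409% in replicate 1) were left out. Expected counts were rounded. TMM factors (edgeR 4.0.16, R 4.3.3) over genes with at least 20 summed counts were 1.24 in replicate 2 and 0.81 in replicate 1. With 1 group of 2 libraries no quasi-likelihood model could be fitted, so an exact binomial test (scipy 1.17.1) at the scaled share of counts was used, with Benjamini-Hochberg adjustment over 14442 genes (statsmodels 0.14.6), a threshold of 0.05, a minimum fold of 2 and, for log2 ratios, a pseudocount of 0.5 CPM. Folds and intervals have none. Tested on simulated counts of 14423 genes with counting error only, it recovered 200 of 200 genes changed 4-fold and called 4 unchanged genes. Promoter windows came from RefSeq (GRCm38.p6), where 8 of 10 members matched by symbol. Alternatives were DESeq2 1.42.0 size factors, library size, other pseudocounts, filters and thresholds, the second quantification and each library alone.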

Additional observations from a re-analysis of the deposited data

How the results depend on the processing

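The count of 6 members at 1 TPM or more in both libraries was 10 with TPM rescaled to protein-coding genes and 3 at a threshold of 5 TPM. It ranged from 6 to 8 with 1 library left out. The median level of 4.68 TPM was 10.7 TPM in the second quantification, 21.6 TPM after rescaling to protein-coding genes, and 1.81 to 7.46 TPM with 1 library left out. The count of 1 member past 2-fold between the libraries was 3 with DESeq2 size factors (Tlr3, Tlr4 and Tlr8), 6 by library size alone (Tlr2, Tlr3, Tlr4, Tlr6, Tlr7 and Tlr8), 2 in the second quantification (Tlr3 and Tlr4) and 7 with no fold minimum. It was 2 (Tlr3 and Tlr8) with TMM factors from all genes, an alternative chosen after seeing the data. The median log2 ratio of 0.66 was 1.24 by library size alone, where the median of all genes was 0.51. It was 0.39 in the second quantification and 1.29 on log2(TPM + 1), where the median of all genes was 0.57. The share of TPM on transcripts not annotated protein-coding, 8.29%, was 32.3% in the second quantification, 0.515% by counts and 7.89% to 8.70% with 1 library left out.

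Directions reversed in 3 of 50 recomputed log2 ratios: Tlr5 at -0.02 and Tlr1 at -0.06 in the second quantification, and Tlr13 at 0.50 by library size alone. A further 43 kept direction and side of the threshold, 1 no longer passed and 3 newly passed (Tlr5 and Tlr9 by library size alone, Tlr13 as lower in the second quantification). The causes were not tested. No paired analysis was possible because there is 1 group. Leaving out a library leaves no comparison between libraries. Depth limits Tlr5, Tlr9 and Tlr3, each under 50 counts in replicate 1.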
